A study of Gorilla gorilla gorilla with 14 samples.

Results

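Basal radial glia (bRG) were compared with apical radial glia (aRG) from gorilla cerebral organoids by the accessibility of their chromatin. The comparison used 5 of the 14 sequenced libraries as its subject, 2 of bRG and 3 of aRG, and 204249 of the 218080 regions in the deposited count table, those with a gorilla position. Cerebral organoids are cultured tissues in which pluripotent stem cells form neural stem cells and their progeny. All libraries came from week 8 of culture and from GC1, an induced pluripotent line, so the groups share 1 line and the same culture time. Cells of each type were isolated by flow cytometry and profiled in bulk by ATAC-seq, in which a transposase inserts sequencing adapters into open DNA. The other libraries, 5 of basal intermediate progenitors (bIP) and 4 of neurons (N), entered the model and serve here as reference levels. Whether libraries of 1 group stem from separate cultures is not stated in the labels. The p-values therefore describe the spread between these samples alone, which may be technical.

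Apical radial glia are the stem cells of the ventricular zone. They are epithelial in form, with an apical end joined to its neighbours by adherens junctions and a basal process that reaches the pial surface. Basal radial glia have lost the apical contact and sit away from the ventricle, keep a basal process, and express most of the same stem cell genes. They are abundant in species with a large, folded cortex, where the genes HOPX, TNC, PTPRZ1 and FAM107A are used to recognise them.

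The 5 libraries did not fall into their groups. Distance between libraries was taken as the median absolute log2 difference in CPM (counts scaled to a common library size) over the 40400 regions with a mean of at least 5 CPM. The shortest distance was 0.087, between aRG replicates 1 and 2, and the next was 0.108, between the bRG replicates. The third aRG replicate lay 0.130 and 0.128 from bRG replicates 1 and 2, against 0.244 and 0.254 from aRG replicates 1 and 2. By this measure aRG replicate 3 was nearer to both bRG libraries than to either of the other aRG libraries. By the share of regions that differed over 2-fold, aRG replicate 3 was again nearer to bRG. This share was 0.356% and 0.255% to the bRG libraries and 6.35% and 7.27% to the other aRG libraries. The full order of pairs differed, with 0.0619% between the bRG libraries and 0.109% between aRG replicates 1 and 2. Replicate 1 of aRG was at 5.21% and 5.81% from bRG replicates 1 and 2, and aRG replicate 2 at 6.19% and 6.78%. The numbers of the libraries form 2 runs, here called library series. Replicates 1 and 2 of aRG belong to the first, and aRG replicate 3 and both bRG libraries to the second. What a series stands for is not given in the labels. Because no bRG library belongs to the first series, only aRG replicate 3 can be set against bRG within a series.

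**Figure D1:**
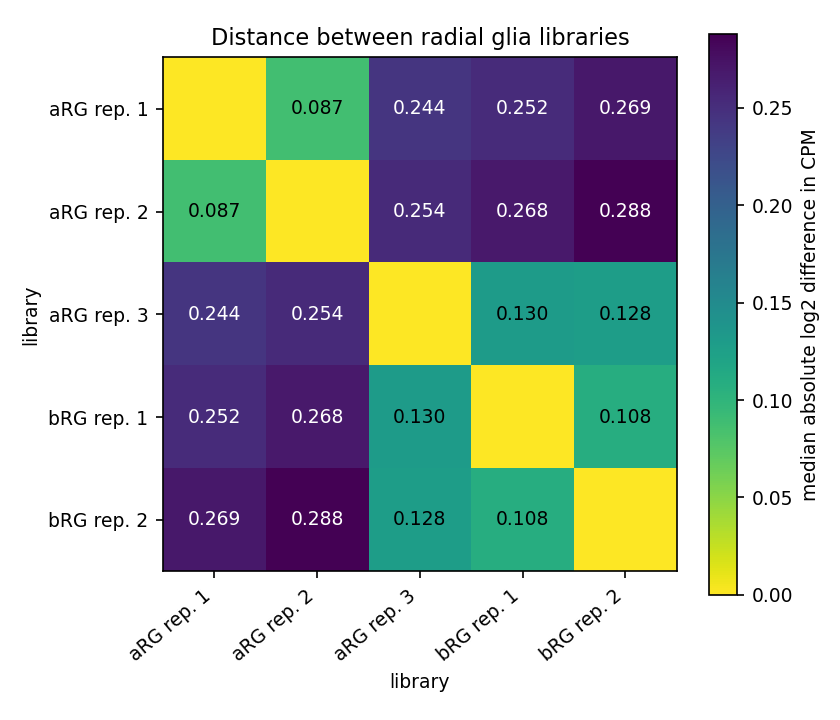
Median absolute log2 difference in CPM for each pair of radial glia libraries (both axes: library, as group and replicate; colour and printed number: the distance) over 40400 regions with a mean of at least 5 CPM. The third aRG replicate stands at 0.130 and 0.128 from the bRG libraries and at 0.244 and 0.254 from the other aRG libraries.

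Depth was similar in the groups. Total counts ranged from 17586017 to 26660427 in aRG and from 19685454 to 20288348 in bRG. A count of 3 in a library, taken as the lowest level told apart from 0, corresponded to between 0.113 and 0.171 CPM in these libraries and covers counting error only. Promoter regions, those listed at most 1000 bp from a gene, held 37.8%, 38.9% and 38.7% of counts in aRG replicates 1 to 3 and 36.7% and 36.1% in bRG replicates 1 and 2. The groups did not overlap, and an exact two-sided permutation test gave p = 0.2, the smallest that 3 libraries against 2 allow.

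In a model of all 14 libraries with a term for library series, bRG and aRG did not differ past the threshold at any region. With edgeR's quasi-likelihood test, 0 regions were higher and 0 lower (0% of 200931 in each direction). Before adjustment, 4341 higher regions (2.16%) and 3856 lower (1.92%) had a p under 0.05, 8197 in all (4.08%). Leaving out the series term gave 0 calls and 8367 regions with an unadjusted p under 0.05 (4.16%). DESeq2's Wald test called 0 higher and 7 lower (0.00348%), with 6706 regions at an unadjusted p under 0.05 (3.34%). All differences below are log2 values, bRG minus aRG, from this model unless another fit is named. Its estimate need not follow the ratio of the group means, because the series term is estimated from all cell types that both series hold. In data simulated from these libraries, with 200 changed regions, the procedure recovered 25% of 2-fold and 98% of 4-fold differences. The changed regions were drawn from those with a mean over 5 CPM, and no difference between library series was simulated. Recovery at less accessible regions was not simulated.

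Intervals show how large an unseen difference could be. The 95% interval around a region's difference stayed within 2-fold in either direction for 75.5% of promoter regions, 38.5% of regions from 1000 to 50000 bp from a gene, and 32.9% of those farther away. It lay within 4-fold for 97.3%, 92.2% and 91.0% of them. At most distal regions the interval thus reached past 2-fold on at least 1 side.

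Promoters stood slightly lower in bRG as a class. Their median difference was −0.19, against 0.00 for the regions from 1000 to 50000 bp and 0.05 for the farthest regions, but with offsets fitted by loess along abundance the promoter median was −0.01. Keeping 1 promoter region per gene, that with the highest mean count, left 19305 promoters, of which 8063 (41.8%) were lower in both bRG libraries than in any aRG library and 1094 (5.67%) were higher in both. The gene lists below hold protein-coding genes, and of the 10099 promoters matched to such genes 5496 (54.4%) were lower and 251 (2.49%) higher without overlap, with a median of −0.23. The counts of the lists are to be read against these shares. At 48.5% of all promoters and 40.0% of the protein-coding ones aRG replicate 3 was nearer to the bRG mean than to the mean of the other aRG libraries on the log2 scale. Over all regions, 15.1% were lower and 14.1% higher without overlap. Regions with a mean under 1 CPM had a median difference of 0.22 and those with a log2 mean over 6 of −0.35.

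Stem cell genes shared by both kinds of radial glia had open promoters in every library. SOX2, a transcription factor that maintains neural stem cells, has its promoter region on chromosome 3 from 178123597 to 178125650 (gorGor6). Its accessibility was 58.1, 61.1 and 58.7 CPM in aRG replicates 1 to 3 and 51.7 and 46.4 CPM in bRG replicates 1 and 2. Every bRG library was below every aRG library, and all 5 lay far above the neurons (9.60 ± 1.56 CPM, SD, n = 4). The difference was −0.51 ± 0.23 (SE), with an unadjusted p of 0.032 and an adjusted p of 0.987. The region of VIM, which encodes the intermediate filament vimentin, stood at 130, 129 and 124 CPM in aRG and at 108 and 101 CPM in bRG (difference −0.42 ± 0.24). HES1, a repressor that acts downstream of Notch, stood at 56.2, 64.6 and 58.7 CPM in aRG and at 53.9 and 45.7 CPM in bRG (−0.42 ± 0.25). In both genes the groups did not overlap. PAX6, a transcription factor of cortical progenitors, did not separate them, at 15.3, 13.5 and 15.3 CPM in aRG and 14.5 and 14.4 CPM in bRG. NES, which encodes nestin, also overlapped, at 16.3, 16.1 and 19.1 CPM against 16.2 and 17.7 CPM.

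Some genes of this list followed the library series instead. FABP7, a fatty acid binding protein of radial glia, stood at 82.4 and 83.5 CPM in aRG replicates 1 and 2, 52.9 CPM in aRG replicate 3, and 51.8 and 47.7 CPM in bRG. SLC1A3, the glial glutamate transporter, stood at 52.5, 58.0 and 43.0 CPM in aRG and 39.7 and 34.6 CPM in bRG (−0.35 ± 0.23). Although neither gene overlapped between the groups, aRG replicate 3 stood beside bRG in both. Of 16 genes on the list 14 had a measured promoter. None of them passed the test in either direction, 1 (SOX2) was lower at an unadjusted p under 0.05, where 1.48% of all promoters (0.891% of the protein-coding ones) were lower and 0.616% (0.218%) higher, and 10 were lower without overlap, or 71.4% against 54.4%. Their median difference was −0.33, against −0.20 for all promoters, and −0.08 with loess offsets, against −0.01. In bulk samples such as these, fewer cells with an open region and less openness per cell cannot be told apart.

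Genes that mark the apical side differed little between the groups, and none passed the test. PROM1, the membrane protein prominin (CD133) of the apical surface, stood at 44.3, 48.0 and 47.7 CPM in aRG and 47.2 and 44.9 CPM in bRG, a difference of −0.16 ± 0.21. The polarity gene PARD3 stood at 53.5, 55.3 and 52.7 CPM in aRG and 52.2 and 48.3 CPM in bRG (−0.10 ± 0.22). CDH2, the N-cadherin of the apical junctions, stood at 90.7, 94.6 and 92.5 CPM against 89.1 and 83.8 CPM (−0.23 ± 0.25). At PARD3 and CDH2 the bRG libraries were below all aRG libraries by a small margin, and the 95% intervals of all 3 genes lay within 2-fold. Of the 11 genes of the apical list 6 were measured, with a median of −0.13 (0.15 with loess offsets). Lower without overlap were 2 of the 6 (33.3%, against 54.4% of protein-coding promoters).

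Genes of apical junctions and polarity were measured at 11 of 15 promoters. In bRG 9 of them (81.8%) were lower without overlap, against 54.4% of protein-coding promoters. The median of the 11 was −0.27, and with loess offsets it was 0.02, with 6 of 11 above 0, so the sign depended on the scaling. CRB2, a component of the Crumbs complex, stood at 64.9, 67.1 and 54.8 CPM in aRG and 53.8 and 50.1 CPM in bRG. FAT4, a large protocadherin, stood at 69.0, 69.6 and 55.9 CPM against 54.2 and 48.4 CPM. At both promoters aRG replicate 3 lay within 2 CPM of the higher bRG library. NUMB, an inhibitor of Notch signalling, had the values 47.3, 47.9 and 41.2 CPM in aRG and 34.5 and 33.5 CPM in bRG. There aRG replicate 3 stood between the other aRG libraries and bRG.

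No promoter of the genes used to recognise basal radial glia stood above all aRG libraries in both bRG libraries. HOPX, on chromosome 4 from 61540799 to 61542332, stood at 27.1, 27.1 and 21.4 CPM in aRG and 23.2 and 18.5 CPM in bRG. The groups overlapped, and the difference was −0.18 ± 0.27. The 3 regions listed under HOPX but over 1000 bp from it summed to 80.0, 84.5 and 63.6 CPM in aRG and 62.2 and 49.8 CPM in bRG. At its promoter and at these regions alike, aRG replicates 1 and 2 had the highest values. TNC, which encodes the matrix protein tenascin C, stood at 20.6, 21.6 and 25.7 CPM in aRG and 26.3 and 22 CPM in bRG (−0.20 ± 0.22). PTPRZ1, a receptor phosphatase, stood at 27.2, 29.7 and 28.0 CPM against 30.2 and 24.9 CPM (−0.16 ± 0.23). FAM107A, a regulator of the cytoskeleton, stood at 17.5, 14.9 and 18.7 CPM against 14.1 and 17.2 CPM (−0.08 ± 0.25). None of these promoters separated the groups, and each was higher in both radial glia than the mean of N. At HOPX and PTPRZ1, however, N replicate 4 (21.5 and 25.5 CPM) was above bRG replicate 2. At TNC and FAM107A every radial glia library was above every N library.

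Other basal genes overlapped between the groups or stood lower in bRG. SLCO1C1, a thyroid hormone transporter, stood at 10.4, 10.5 and 8.43 CPM in aRG and 9.25 and 8.57 CPM in bRG, while bIP had 1.84 ± 0.547 CPM (n = 5). All 5 radial glia libraries were well above bIP. ITGB5, an integrin subunit, stood at 22.5, 25.0 and 20.2 CPM in aRG and 17.8 and 17.1 CPM in bRG (−0.17 ± 0.24). ACSBG1, an acyl-CoA synthetase, spread widely within both groups, at 6.17, 8.17 and 3.04 CPM in aRG and 5.21 and 2.48 CPM in bRG. STAT3, a transcription factor of cytokine signalling, did not overlap, at 57.7, 59.6 and 52.4 CPM against 43.4 and 40.0 CPM (−0.37 ± 0.26). Of 19 genes of the basal list 14 were measured. None passed the test or had an unadjusted p under 0.05, 4 (ITGB5, GFAP, STAT3 and CLU) were lower without overlap, or 28.6% against 54.4% of protein-coding promoters, and 0 were higher, and the median was −0.17 (−0.01 with loess offsets). LIFR had no region listed within 1000 bp under its name. Its 1 measured region farther away stood at 1.11, 0.811 and 1.08 CPM in aRG and 1.52 and 1.22 CPM in bRG.

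**Figure D2:**
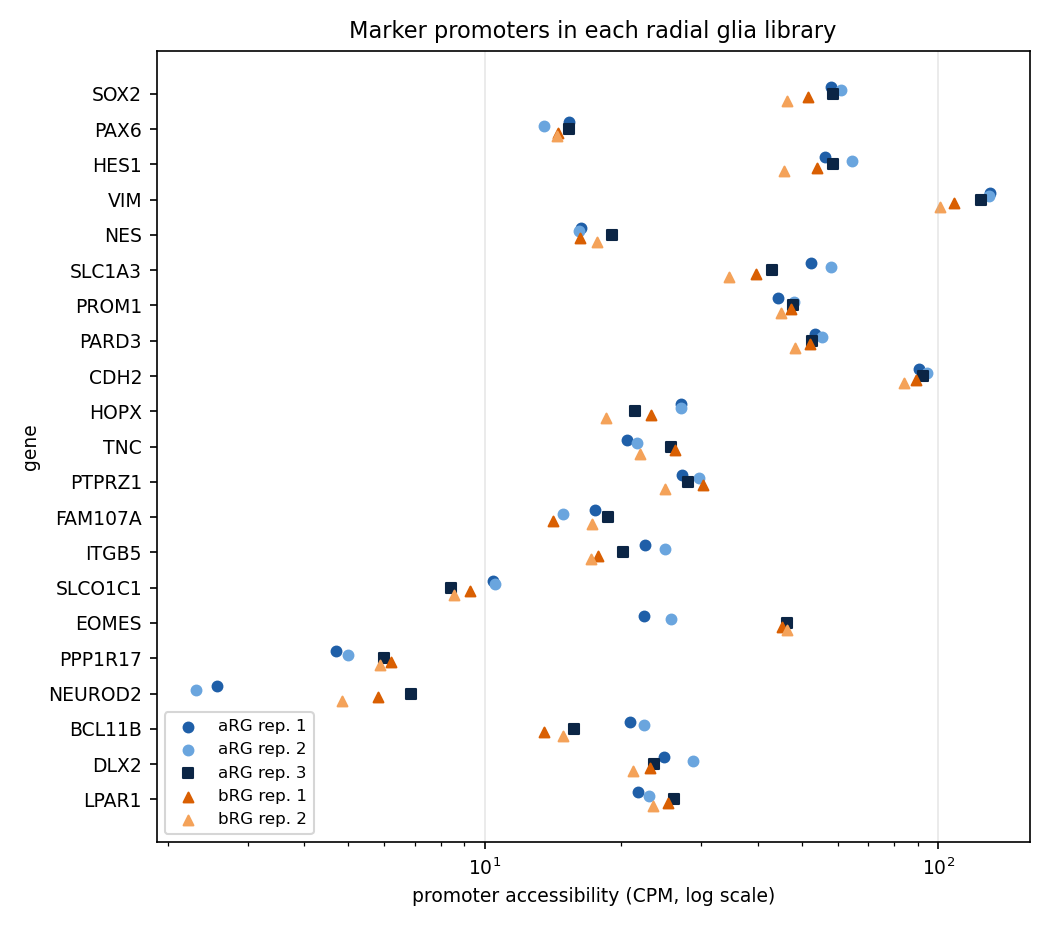
Accessibility of 21 marker promoters in CPM (horizontal axis, log scale; vertical axis: gene) in the 3 aRG libraries (blue; circles for replicates 1 and 2, squares for replicate 3) and the 2 bRG libraries (orange triangles). At EOMES and NEUROD2 the third aRG replicate stands with bRG, and at SOX2 and VIM both bRG libraries are below all aRG libraries.

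Several genes of the neuronal lineage showed a wide gap between the aRG libraries. EOMES, the transcription factor of intermediate progenitors, lies on chromosome 3 from 27772174 to 27776341. Its promoter stood at 22.4 and 25.7 CPM in aRG replicates 1 and 2, 46.4 CPM in aRG replicate 3, and 45.3 and 46.3 CPM in bRG, with 83.0 ± 19.8 CPM in bIP (n = 5). The third aRG replicate could not be told from bRG there, and the difference in the fit to the second series alone was −0.02. Its 4 regions farther away summed to 14.5, 13.3 and 18.1 CPM in aRG and 17.7 and 20.6 CPM in bRG. NEUROD2, a transcription factor of differentiating neurons, stood at 2.57, 2.31 and 6.86 CPM in aRG and 5.81 and 4.83 CPM in bRG, against 38.6 ± 9.25 CPM in N (n = 4). Its difference was 0.24 ± 0.34 in the model of all libraries, 0.98 without aRG replicate 3 and −0.37 in the second series alone, so the sign depended on the aRG libraries used.

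The same order of libraries appeared at some further neuronal promoters, and the opposite order at others. TBR1, a transcription factor of deep-layer neurons, stood at 19.8, 19.4 and 32.9 CPM in aRG and 28.9 and 31.0 CPM in bRG. BHLHE22, a transcription factor of cortical neurons, stood at 3.32, 2.81 and 7.35 CPM against 6.42 and 6.37 CPM. NEUROG1, a proneural factor, stood at 24.0, 25.0 and 38.3 CPM against 33.9 and 35.1 CPM. At these 3 promoters, which were chosen after their values were seen, bRG and aRG replicate 3 were above aRG replicates 1 and 2. All 3 libraries of the second series were above both of the first at 5 of 13 intermediate progenitor genes and 5 of 17 genes of excitatory neurons, and below both at 3 and 5 of them. Among all protein-coding promoters these shares were 10.5% above and 38.8% below. BCL11B, a factor of subcortically projecting neurons, ran the other way, at 20.9, 22.4 and 15.7 CPM in aRG and 13.5 and 14.9 CPM in bRG (−0.37 ± 0.25). So did INSM1, a zinc finger factor of progenitors, at 38.8, 46.1 and 25.7 CPM against 31.1 and 23.1 CPM, and GRIA2, a glutamate receptor subunit, at 16, 16.9 and 13.5 CPM against 13.5 and 11.9 CPM.

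As a whole the neuronal lists showed no shift in 1 direction. The list of intermediate progenitors had 13 of 17 genes measured, a median of −0.11 (0.07 with loess offsets) and 10 genes with aRG replicate 3 nearer to bRG. The list of excitatory neurons had 17 of 20 measured, with a median of −0.19 (0.10 with loess offsets) and 10 genes with aRG replicate 3 nearer to bRG. No gene of either list had an unadjusted p under 0.05. Respectively 2 and 6 genes were lower without overlap (15.4% and 35.3%, against 54.4% of protein-coding promoters). The summed promoter accessibility of the excitatory list was 421, 428 and 463 CPM in aRG and 427 and 404 CPM in bRG, below the range of 436 to 649 CPM in N except in aRG replicate 3. What part this level in aRG replicate 3 had in other differences was not tested. PPP1R17, a phosphatase inhibitor of intermediate progenitors, stood at 4.70, 4.99 and 5.98 CPM in aRG and 6.22 and 5.86 CPM in bRG (0.17 ± 0.26).

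Neuronal chromatin was also followed through classes defined from bIP and N only, so that radial glia played no part in choosing them. The 1845 promoters over 2-fold higher in N than in bIP had medians of 0.751, 0.749 and 0.932 CPM in aRG and 0.758 and 0.796 CPM in bRG, and of at least 3.17 CPM in every N library. These promoters were nearly closed in all 5 radial glia libraries, with aRG replicate 3 the highest. The 27772 distal regions over 2-fold lower in N than in bIP had medians of 3.08, 3.12 and 3.33 CPM in aRG and 3.44 and 3.37 CPM in bRG.

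**Figure D3:**
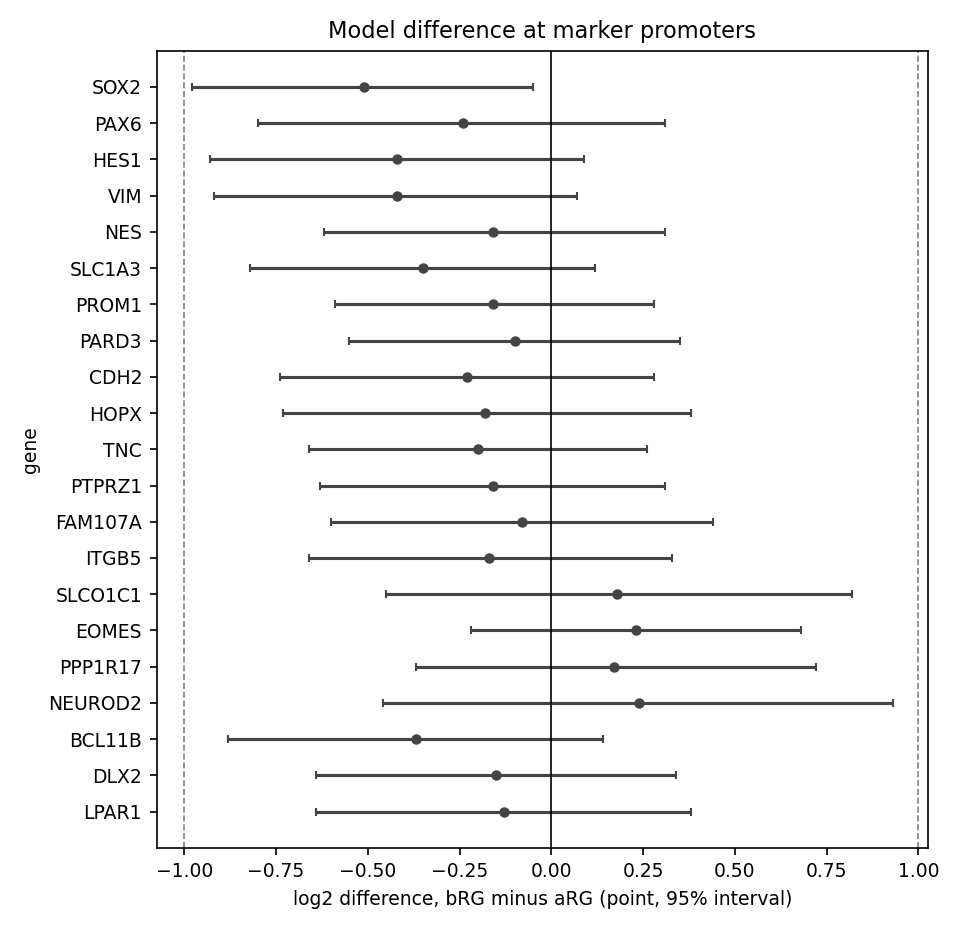
Difference between bRG and aRG (horizontal axis: log2, bRG minus aRG; vertical axis: gene) at the same 21 promoters in the model of all 14 libraries, with points for estimates and bars for 95% intervals; dashed lines mark 2-fold. Every bar lies within 2-fold, and only that of SOX2, from −0.98 to −0.05, leaves out 0.

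Genes that shape the radial process and its surroundings did not pass the test. Without overlap, 5 of 13 for the process (38.5%) and 4 of 13 for the matrix (30.8%) were lower, against 54.4% of protein-coding promoters. LPAR1, a lysophosphatidic acid receptor that acts on the cytoskeleton, stood at 21.8, 23.0 and 26.1 CPM in aRG and 25.4 and 23.5 CPM in bRG (−0.13 ± 0.25). PALMD, the gene of palmdelphin, stood at 17.5, 17.2 and 27.0 CPM against 21.6 and 21.9 CPM, with aRG replicate 3 the highest of all. RHOA, a small GTPase of the actin cytoskeleton, stood at 53.3, 58.5 and 52.3 CPM in aRG and 40.0 and 37.5 CPM in bRG (−0.43 ± 0.25). Its groups did not overlap. Of 21 genes for process shape and adhesion 13 were measured, with a median of −0.21 that became 0.03 with loess offsets. Of 16 matrix genes 13 were measured, with a median of −0.20 (0.02 with loess offsets). VCAN, a large matrix proteoglycan, stood at 88.7, 93.0 and 87.0 CPM in aRG and 74.0 and 70.2 CPM in bRG (−0.45 ± 0.24), also without overlap.

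Signalling and growth genes gave the same picture of small differences that did not pass the test. Of 17 genes of growth factor signalling 14 were measured, with a median of −0.29 (−0.02 with loess offsets). Among the 14, 8 were lower without overlap (57.1%, against 54.4% of protein-coding promoters). ETV5, a transcription factor induced by FGF signalling, stood at 53.0, 57.1 and 42.4 CPM in aRG and 38.2 and 30.6 CPM in bRG (−0.40 ± 0.24). FGFR1, an FGF receptor, overlapped, at 54.2, 56.3 and 61.8 CPM against 57.0 and 52.8 CPM. The Notch list had 9 of 12 genes measured and 5 (55.6%) lower without overlap (median −0.26, or −0.02 with loess offsets). Its ligand JAG1 stood at 45.6, 52.9 and 50.9 CPM in aRG and 42.9 and 41.7 CPM in bRG. The Hippo list had 6 of 13 measured and 1 (16.7%) lower without overlap (median −0.18, or 0.07 with loess offsets). No gene of these lists had an unadjusted p under 0.05.

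Most cell cycle genes stood lower in bRG in their raw order. Of 16 genes 14 were measured and 10 were lower without overlap (71.4%, against 54.4% of protein-coding promoters), with a median of −0.26 that was −0.05 with loess offsets, and no gene had an unadjusted p under 0.05 in the model of all libraries. CCNB2, a mitotic cyclin, stood at 29.7, 31.8 and 28.0 CPM in aRG and 22.7 and 19.3 CPM in bRG (−0.44 ± 0.24). PLK1, a mitotic kinase, stood at 21.7, 23.5 and 20.6 CPM against 15.3 and 13.3 CPM (−0.34 ± 0.23). At both the gap between the groups was wider than the spread within them. MKI67, the gene of the proliferation antigen Ki-67, was nearly level, at 19.1, 19.7 and 19.7 CPM in aRG and 18.0 and 19.0 CPM in bRG. CCND2, a G1 cyclin, followed the series, at 24.7, 24.0 and 40.7 CPM in aRG and 39.7 and 37.1 CPM in bRG. Of 12 genes of cilia and centrosomes 9 were measured and 7 (77.8%) were lower without overlap (median −0.26, or −0.02 with loess offsets). Of 13 genes of glutamine and lipid metabolism 8 were measured and 5 (62.5%) were lower without overlap (median −0.27, or −0.01). The 3 measured housekeeping genes had a median of −0.39 (−0.11 with loess offsets), lower than that of any other list.

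Markers of other cell types were present at low to moderate levels in both groups. Of 14 genes of the GABAergic lineage all were measured, with a median of −0.06 (0.09 with loess offsets). Among them NKX2-1 and LHX6 were higher without overlap (14.3%, against 2.49% of protein-coding promoters). The model's difference was nonetheless −0.11 at NKX2-1, and it was 0.35 at LHX6. DLX2 and SST were lower without overlap (14.3%, against 54.4%), and SST, a neuropeptide of interneurons, was lower at an unadjusted p of 0.027. SST stood at 3.99, 3.87 and 5.74 CPM in aRG and 3.79 and 3.33 CPM in bRG (−0.68 ± 0.29). Of 18 genes of axons and synapses 13 were measured, and 1 was lower at an unadjusted p of 0.012 (median −0.21, or 0.03 with loess offsets). It was SYT4, a synaptotagmin, at 7.35, 7.80 and 6.37 CPM in aRG and 4.95 and 4.45 CPM in bRG (−0.75 ± 0.28).

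Most choroid plexus and cortical hem genes were highest in aRG replicate 3. The summed accessibility of the 9 measured promoters, of 12 on the list, was 63.6, 66.3 and 90.9 CPM in aRG and 70.3 and 72.7 CPM in bRG, so aRG replicate 3 was the highest. It was the highest of the 5 libraries at 7 of the 9 promoters, against 27.7% of protein-coding promoters, the exceptions being KCNJ13 and AQP1. The latter, an aquaporin, stood at 9.17, 9.73 and 8.14 CPM against 5.16 and 6.70 CPM. A high share was not particular to this list. Replicate 3 of aRG was highest at 62.5% of the mesenchyme and endothelium promoters, 52.9% of the excitatory neuron ones and 50.0% of the glial ones. In the apical and Notch lists the share was 0%. FOLR1, a folate receptor of the choroid plexus, stood at 2.57, 3.31 and 7.65 CPM in aRG and 5.00 and 4.78 CPM in bRG. LMX1A, a transcription factor of the hem, stood at 4.55, 4.05 and 11 CPM against 7.63 and 9.23 CPM. TTR, the gene of transthyretin, had no region listed within 1000 bp under its name, and its 8 regions farther away summed to 11.4, 12 and 24.4 CPM in aRG and 16.3 and 17.6 CPM in bRG. At FOLR1, LMX1A and the TTR regions, bRG stood between aRG replicate 3 and the other aRG libraries. The 8 measured promoters of mesenchyme and endothelium summed to 95.8, 97.6 and 114 CPM in aRG and 98.9 and 104 CPM in bRG. Of these, LUM and FOXC1 were higher without overlap (25.0%, against 2.49% of protein-coding promoters) and 0 were lower. Their model differences were −0.04 and 0.11. Of 9 glial lineage genes 8 were measured, with a median of −0.10 (−0.11 with loess offsets). Of the 8, 3 were lower without overlap (37.5%, against 54.4% of protein-coding promoters). The 4 measured pluripotency genes had a median of 0.33, with TMM and with loess offsets. DPPA4 stood at 0.870, 1.25 and 2.50 CPM in aRG and 3.13 and 2.81 CPM in bRG, with aRG replicate 3 again nearer to bRG. DPPA4 and PRDM14 were higher in bRG without overlap (50.0%, against 2.49% of protein-coding promoters), with model differences of 0.55 and 0.11. DNMT3B, the most accessible of the 4, was lower in bRG without overlap (−0.19 ± 0.26). It stood at 26.4, 27.8 and 28.3 CPM in aRG and 25.7 and 23.4 CPM in bRG.

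The promoters of protein-coding genes with the smallest p in each direction were mostly of low accessibility. Among the 8 lowest in p that were lower in bRG was MARVELD2, the gene of tricellulin, a protein of tricellular tight junctions. It lies on chromosome 17 from 25233082 to 25234095 and stood at 2.33, 2.06 and 4.41 CPM in aRG and 1.92 and 2.06 CPM in bRG (−1.26 ± 0.35, unadjusted p = 0.0013). Its groups met at 2.06 CPM. NTSR1, a neurotensin receptor, stood at 1.66, 2.62 and 2.75 CPM in aRG and 1.42 and 1.31 CPM in bRG (−1.01 ± 0.32), against 15.2 ± 3.74 CPM in N. RSPH9, a radial spoke protein of motile cilia, stood at 17.9, 20.8 and 20.4 CPM against 15.5 and 15.7 CPM (−0.82 ± 0.28). MRPS24, a protein of the mitochondrial ribosome, stood at 2.49, 2.50 and 2.40 CPM against 1.36 and 1.17 CPM (−0.97 ± 0.33). NTSR1, RSPH9 and MRPS24 did not overlap between the groups, and at MRPS24 all 3 aRG libraries were at nearly the same level. The others were HEATR4, TSPEAR, KRTAP27-1 and SYNDIG1, with differences from −2.0 to −1.01.

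On the higher side the 8 promoters were those of CCL24, ALOX5AP, IL4, NINJ2, GNA14, C1GALT1C1L, SLC9A2 and C8A, with differences from 0.61 to 2.27. SLC9A2, a sodium and proton exchanger, was the most accessible, at 11.3, 10.5 and 8.97 CPM in aRG and 13.0 and 11.1 CPM in bRG (0.61 ± 0.24). Its groups overlapped. C1GALT1C1L stood at 3.16, 2.74 and 2.50 CPM in aRG and 3.99 and 4.03 CPM in bRG (0.76 ± 0.29), without overlap. CCL24, a chemokine gene, stood at 0.119, 0.312 and 0.196 CPM in aRG and 0.354 and 0.609 CPM in bRG. The aRG values lie near the lowest level told apart from 0, between 0.113 and 0.171 CPM, and the bRG values also rest on few counts. All 16 promoters had an adjusted p of 0.987.

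Of the regions over 1000 bp from a gene, the 5 with the smallest p on the lower side were all more accessible in N than in radial glia. They were listed nearest to NFE2L3, AC068870.3, AL157817.1, ANP32AP1 and NGB, 24113, 12655, 3093, 28931 and 3721 bp away. The region nearest to NFE2L3 lies on chromosome 7 from 26756726 to 26758135 and stood at 1.11, 1.06 and 2.26 CPM in aRG and 0.708 and 0.750 CPM in bRG (−1.70 ± 0.36), against 13.8 ± 8.43 CPM in N. The region nearest to ANP32AP1 stood at 0.988, 0.811 and 1.81 CPM in aRG and 0.455 and 0.609 CPM in bRG (−1.77 ± 0.39), against 17.8 ± 7.88 CPM in N. All 5 regions were lower in bRG without overlap, and in all of them aRG replicate 3 had the highest value of the radial glia libraries. The region nearest to NGB, the gene of neuroglobin, stood at 1.70, 1.43 and 1.86 CPM in aRG and 0.809 and 0.843 CPM in bRG (−1.76 ± 0.39).

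On the higher side the 5 regions were those nearest to AC025160.1, LINC02411, PPP1R14BP5, a Y_RNA gene and DDX43P3. The region nearest to PPP1R14BP5 stood at 0.395, 0.187 and 0.441 CPM in aRG and 1.11 and 1.08 CPM in bRG (2.00 ± 0.42), against 5.40 ± 1.32 CPM in bIP. Its bRG libraries were both above all aRG libraries. The region nearest to AC025160.1 had the smallest p on this side. It stood at 0.790, 0.312 and 0.0981 CPM in aRG and 0.303 and 0.468 CPM in bRG, with group means of 0.400 and 0.386 CPM, while the model's difference was 3.30 ± 0.67. The libraries overlapped and the group means were level, and without the series term the difference was −0.12.

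Restricting the fit to the 5 radial glia libraries, with the series term kept, gave calls where the model of all libraries gave none. It called 94 regions higher (0.0527% of 178460) and 1031 lower (0.578%), and without the series term it called 0, while 21268 regions had an unadjusted p under 0.05 (11.9%). In this fit the contrast is that of bRG with aRG replicate 3, the only aRG library of its series. The spread comes only from aRG replicates 1 and 2 and from the bRG pair. The chi-square per degree of freedom, a measure of spread beyond counting error, was 1.07 and 1.44 for these pairs. It was 6.04 and 5.30 for the pairs of aRG replicate 3 with the other aRG libraries. The p-values of this fit thus set a single aRG library against a spread that may be technical. The 1031 lower regions had medians of 2.02, 2.00 and 4.31 CPM in aRG and 1.67 and 2.11 CPM in bRG. Their median in aRG replicate 3 was therefore above that of the other 4 libraries, which were close together. Region by region, aRG replicates 1 and 2 were also both above both bRG libraries at 463 of them (44.9%). At 139 (13.5%) they were both below both bRG libraries. The 94 higher regions had medians of 1.66, 1.31 and 0.613 CPM in aRG and 1.87 and 1.73 CPM in bRG, and aRG replicate 3 was the low library. There aRG replicates 1 and 2 were also both below both bRG libraries at 53 regions (56.4%), and both above them at 16 (17.0%). Such shares were not taken over all regions. With a minimum of 5 CPM in 2 libraries the calls were 7 and 16.

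Of promoters, 1 per gene, this fit called 183 lower (0.983% of 18614) and 3 higher (0.0161%). Among protein-coding genes it called 107 lower (1.07% of 10028) and 0 higher (0%). Of 219 genes of the lists above in this fit 5 were called, all lower. They were PLK1 (−0.50, adjusted p = 0.0305), RHOA (−0.40, adjusted p = 0.0249), the housekeeping gene PPIA (−0.37, adjusted p = 0.0409), KCNJ13, and CLDN5, a claudin of endothelium (−0.62, adjusted p = 0.0224). At CLDN5 the groups overlapped, at 7.75, 8.92 and 14.9 CPM in aRG and 8.54 and 10.4 CPM in bRG. Its difference was 0.25 without aRG replicate 3. In the model of all libraries none of the 5 had an unadjusted p under 0.05. The promoter of LSR, a receptor of lipoproteins and of tricellular junctions, had the smallest p among protein-coding genes. It lies on chromosome 19 from 29388133 to 29389900 and stood at 5.49, 5.43 and 9.51 CPM in aRG and 1.92 and 3.75 CPM in bRG, against 0.579 ± 0.195 CPM in bIP (n = 5). Both bRG libraries were below all aRG libraries. The difference was −1.70 ± 0.20 in this fit (edgeR's quasi-likelihood test, adjusted p = 9.59e-08), −1.19 ± 0.42 with all libraries (adjusted p = 0.987) and 0.00 without aRG replicate 3. Without aRG replicate 3 the series term rests on bIP and N alone, and LSR was nearly closed in both (means of 0.579 and 0.510 CPM). The value of 0.00 therefore does not mean equal accessibility, as aRG replicates 1 and 2 also stood above both bRG libraries. ATP13A5 came next by p, at 2.81, 2.81 and 5.15 CPM in aRG and 1.36 and 1.92 CPM in bRG.

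The promoters called in that fit were of more than 1 kind. At TMEM271, EPHA10, PPL, UBAP1L, MARVELD2 and TMEM130 aRG replicate 3 alone stood high. EPHA10, an ephrin receptor open in neurons (40.7 ± 9.28 CPM, n = 4), stood at 3.52, 2.56 and 5.74 CPM in aRG and 2.73 and 2.34 CPM in bRG, and CLDN3, a claudin, at 4.62, 5.43 and 8.29 CPM against 3.49 and 4.73 CPM. At others the 3 aRG libraries stood together above bRG. TRPM1, a cation channel gene, stood at 12.4, 13.0 and 8.58 CPM in aRG and 4.60 and 4.83 CPM in bRG (−0.83 in this fit, adjusted p = 0.00685). KCNJ13, a potassium channel of the choroid plexus, stood at 7.04, 8.61 and 8.24 CPM against 3.79 and 5.11 CPM (−0.85, adjusted p = 0.0117). EIF1, a translation initiation factor, stood at 74.9, 78.4 and 73.4 CPM against 55.8 and 51.7 CPM (−0.42, adjusted p = 0.00862), and SEC14L5 at 17.8, 18.8 and 14.7 CPM against 8.80 and 9.74 CPM. The groups did not overlap at these 4 promoters, and at KCNJ13, EIF1 and SEC14L5 the gap between them was wider than the spread within either. In the model of all libraries TRPM1 had a difference of −0.73 ± 0.27 and EIF1 of −0.49 ± 0.26, without passing the test.

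**Figure D4:**
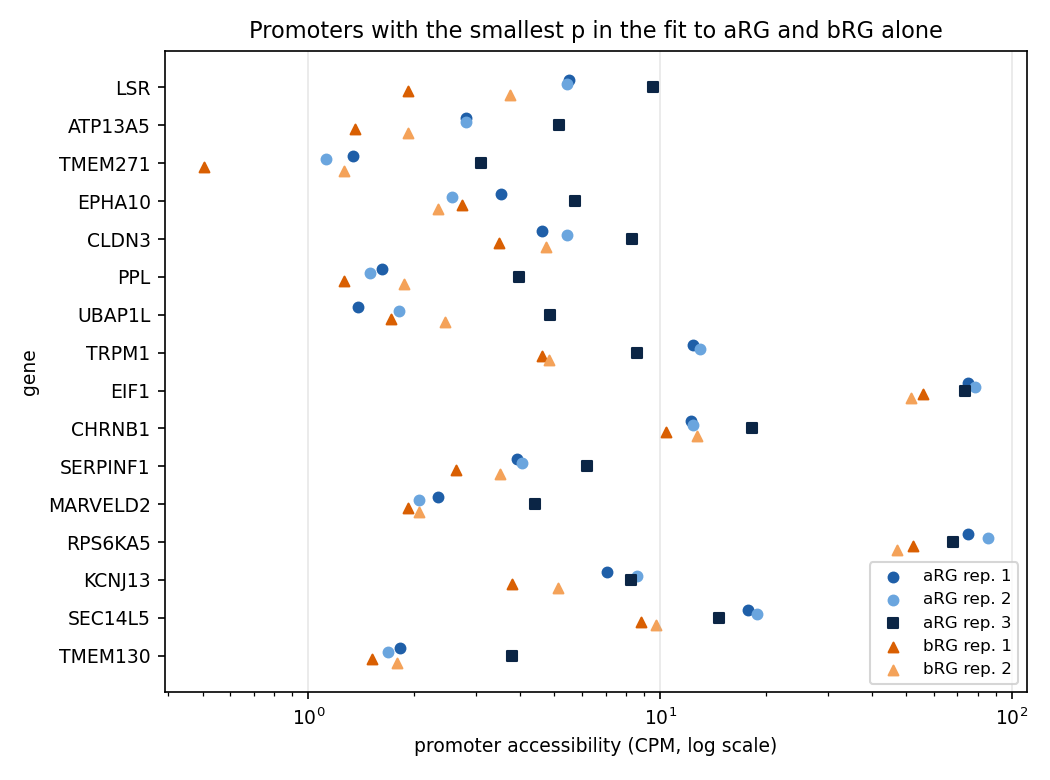
Accessibility in CPM (horizontal axis, log scale; vertical axis: gene) of the 16 promoters of protein-coding genes with the smallest p in the fit to aRG and bRG alone, in each library (blue: aRG, with a square for replicate 3; orange triangles: bRG). At TMEM271 and UBAP1L the third aRG replicate alone is high, whereas at TRPM1, EIF1 and SEC14L5 all 3 aRG libraries are above bRG.

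Since LSR, MARVELD2, CLDN3 and PPL belong to epithelial junctions, 35 genes of tight junctions and epithelium were listed after these values were seen, and 26 had a measured promoter. In the model of all libraries their median was −0.21 (−0.09 with loess offsets), and 8 (30.8%) were lower without overlap, against 54.4% of protein-coding promoters. The 3 at an unadjusted p under 0.05 (LSR, MARVELD2 and PPL) were among the genes that prompted the list, and 0 of the rest were. OCLN, the gene of occludin, stood at 19.3, 18.8 and 15.8 CPM in aRG and 12.2 and 13.1 CPM in bRG. CLDN19 stood at 21.2, 21.5 and 18.4 CPM against 13.9 and 13.5 CPM. JAM2 overlapped, at 48.3, 49.7 and 52.3 CPM against 53.2 and 50.0 CPM. The list thus held promoters that were lower in bRG in every library, such as OCLN, and others that were level, such as JAM2.

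Without aRG replicate 3 the model of all libraries called 11 regions (0.00548% of 200590), 4 higher and 7 lower in bRG. An unadjusted p under 0.05 was found at 16185 regions (8.07%). At all 11 regions aRG replicate 3, which had no part in the call, was nearer to the bRG mean than to the mean of the other aRG libraries. The region nearest to KCNMA1-AS1 stood at 4.07 and 5.74 CPM in aRG replicates 1 and 2, 0.539 CPM in aRG replicate 3, and 0.657 and 0.843 CPM in bRG. The region nearest to AC092546.1 stood at 1.03, 1.5 and 5.83 CPM in aRG and 4.70 and 5.2 CPM in bRG, with 31.9 ± 3.42 CPM in bIP. Within the second series alone, with bIP and N of that series in the fit, 0 regions were called and 4695 had an unadjusted p under 0.05 (2.33% of 201113).

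Several regions with neither a human position nor a listed gene in the table had large differences in CPM. Of 2812 such regions tested, 12 were at least 4-fold lower in bRG by the model and without overlap, and 2 were at least 4-fold higher. Among the other 198119 regions 142 were lower (0.0717%) and 103 higher (0.052%) by this rule. The most accessible lies on chromosome 3 from 78734681 to 78737112 and stood at 2180, 2220 and 1480 CPM in aRG and 215 and 430 CPM in bRG, against 2340 ± 1370 CPM in bIP and 1730 ± 703 CPM in N. Its difference was −2.02 ± 0.38 (adjusted p = 0.489). A second on chromosome 3, from 78740748 to 78742692, stood at 1050, 1020 and 698 CPM against 97.4 and 184 CPM (−2.12 ± 0.38). Both bRG libraries were several times below every aRG library there. The 7 smallest p-values of the whole comparison belonged to regions of this set, the smallest with an adjusted p of 0.165, and the 7 regions called by DESeq2 were among the 12. The fit to the 5 radial glia libraries alone called 10 of the 11 it could fit, and they held its 6 smallest p-values. In that fit the first region had a difference of −2.16 (adjusted p = 1.68e-22) and the second of −2.27 (adjusted p = 1.62e-24). All these fits used the counts by which the 12 were chosen, so their calls are not separate support. Of the 12, 1 was at 0 in both bRG libraries and at no more than 0.277 CPM in aRG, and no fold is given for it.

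Together the 12 regions took 0.385%, 0.370% and 0.256% of all counts in aRG and 0.0384% and 0.0790% in bRG. The bRG shares were the lowest of the 14 libraries, but the regions had been chosen as lower in bRG than in aRG. In bIP and N the share ran from 0.191% to 0.983%, the highest in bIP replicate 3. Those on chromosome 5 lie side by side, as do pairs on chromosomes 3 and 9, so they are not 12 separate loci. All those on chromosomes 1, 3, 5 and 9 were highest in bIP replicate 3 and lowest in bRG replicate 1. Regions on different chromosomes thus may not be separate differences either.

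**Figure D5:**
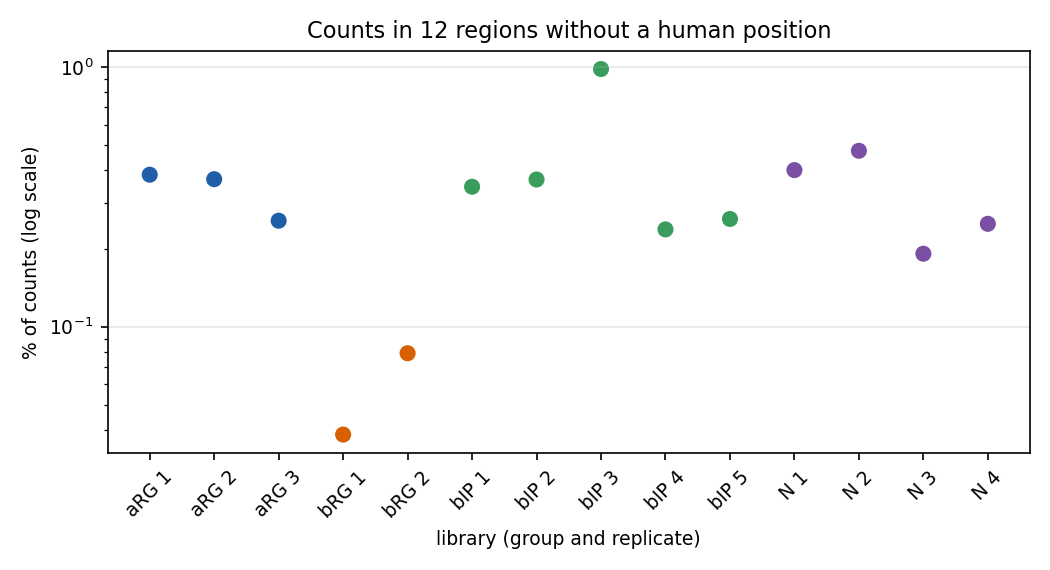
Share of each library's counts, in percent on a log axis, that fell in the 12 regions without a human position and at least 4-fold lower in bRG (horizontal axis: library, by group and replicate; blue aRG, orange bRG, green bIP, purple N). The bRG libraries, at 0.0384% and 0.0790%, lie below all other libraries, which start at 0.191%. Their place below aRG follows from how the regions were chosen.

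The deposited consensus peak sets, 1 per cell type, were compared by overlap of at least 1 base. Chromosomes 2A and 2B had no peak in either set as used here, so 17364 regions on them were left out of what follows, and 186885 regions remained. The aRG set holds 162271 peaks and the bRG set 179137. Of the aRG peaks 89.2% were touched by a bRG peak (Wilson 95% interval 89.1% to 89.4%, counting error only), and of the bRG peaks 89.2% by an aRG peak (89.1% to 89.4%). The sets were not called per library, so this share has no replicate error. Read back in the counts, the 10996 regions touched only by the aRG set had medians of 2.69, 2.74 and 1.86 CPM in aRG and 1.82 and 1.83 CPM in bRG. The 9952 regions touched only by the bRG set had medians of 2.09, 2.06 and 3.04 CPM in aRG and 3.13 and 3.14 CPM in bRG. In both kinds of region aRG replicate 3 stood at the level of bRG, and the gap between the sets was that between aRG replicates 1 and 2 and the other 3 libraries. These regions were picked by peak sets of the same cell types, so part of this gap follows from how they were picked. It is not separate support for a difference. Regions touched by both sets had medians between 7.45 and 7.98 CPM in the 5 libraries.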

How the data were processed

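The authors deposited whole-number counts of reads for each region and library, without normalization, and per the file headers gave each region a name in gorGor6, whose positions are given here counted from 1. The submitters' processing notes name bcl2fastq 2.20.0, MACS2, and the builds hg38 and panTro6. The aligner, the counter and whether reads were shifted to the transposase site were not given in the sources used here. Per the labels' protocols, transposition was followed by overnight reversal of crosslinks and size selection. The peak sets, 1 per cell type, follow the narrowPeak layout, with the authors' score, fold enrichment (ratio), −log10 p-value and −log10 q-value per peak. The authors' −log10 q served only to pick the stronger peaks of each set, and the deposited score, fold and −log10 p entered no comparison. These sets name no build: gorGor6 was assumed, since a peak of either set touched 42.1% of 186885 regions (chromosomes 2A and 2B left out), and 7.65% after a shift of 50000 bp.

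The 13823 regions without a gorilla position, all at 0 counts, and 8 repeats were left out. Totals over the 14 libraries ran from 12834983 to 26660427 counts. edgeR 4.0.16 (R 4.3.3) was run with TMM scaling, filterByExpr, trended dispersions and quasi-likelihood tests on all 14 libraries with group and library series as terms, with Benjamini-Hochberg adjustment over 200931 regions at a threshold of 0.05. Alternatives used DESeq2 1.42.0, other filters, scalings and sets of libraries. CPM are TMM-scaled, and peaks were intersected with bedtools 2.31.1. Reads from PCR without identifiers are not all separate molecules, so intervals of shares and the floor of 3 counts cover counting error only. The tests were checked on simulated counts without a difference between library series, where 5 of 199714 regions were false calls.

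The listed distance was taken as that to the gene's start, which the file does not state. Reads of overlapping or antisense genes at 1 promoter cannot be told apart. Of 39300 gene names 12952 matched a protein-coding gene in the RefSeq table of another gorilla assembly, used for names only. Exon and intron positions and sequences were not used here. Named genes were marker genes, the 8 coding promoters and 5 distal regions with the smallest p in each direction, and list members; examples within lists, and regions named from the other fits or for want of a human position, were chosen after their values were seen. The comparison, its gene lists and its tests were chosen with earlier results of these data known. Replicate numbers were not used to pair samples: deviations of same-numbered libraries correlated at 0.018 and −0.048.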

Additional observations from a re-analysis of the deposited data

How the results depend on the processing

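Counts of called regions stayed at 0 higher and 0 lower with DESeq2's size factors, no filter, a minimum of 5 CPM in 2 libraries, no series term, loess offsets, the second library series alone, and aRG replicates 1 and 2 summed to 1 sample (added after seeing the data, since their chi-square per degree of freedom was 1.07, against 5.30 and 6.04 for the pairs with replicate 3 and 1.44 for bRG). With the replicate block, which did not pair the samples, the counts were 0 and 0, with 4050 higher and 4570 lower at an unadjusted p under 0.05. The aRG and bRG libraries alone gave 94 and 1031, or 88 and 935 with loess offsets and 7 and 16 with the filter at 5 CPM (both added after seeing the data), and 0 and 0 without the series term. DESeq2's Wald test gave 0 and 7. Leaving out each aRG or bRG library in turn gave 0 to 4 higher and 0 to 7 lower, above 0 only without aRG replicate 3. The cause of these changes was not tested. Of 804 values of the 47 named regions under alternatives, 748 kept their direction and side of the threshold, 47 turned in sign without being called in either fit, and 9 passed the threshold only in the alternative. The share of aRG peaks touched by a bRG peak was 93.4% among the stronger peaks by q, 88.4% with at least 50% of the peak covered and 88.0% with its summit inside a peak, and that of bRG peaks 92.5%, 87.6% and 85.4%.

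Depth and the number of libraries left the 95% interval within 2-fold for 41.0% of regions, from 2.45% under a mean of 1 CPM to 97.5% at a log2 mean from 5 to 6.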

Other observations

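The regions without a human position held 2.02%, 2.02% and 1.88% of counts in aRG replicates 1 to 3 and 1.65% and 1.70% in bRG. Of the regions listed under RSPO1, a secreted activator of WNT signalling, the promoter stood at 3.00, 2.93 and 7.31 CPM in aRG and 3.34 and 4.64 CPM in bRG, and the region 25450 bp away at 3.16, 3.31 and 7.60 CPM against 1.57 and 3.37 CPM. At CGNL1, the gene of paracingulin, a region 5494 bp away stood at 1.86, 2.31 and 7.11 CPM in aRG and 2.07 and 2.62 CPM in bRG, while its promoter stood at 6.48, 7.80 and 7.99 CPM against 5.16 and 6.0 CPM.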
